A study of Mus musculus with 10 samples.

Results

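The 10 genes described here belong to the growth arrest and p53-linked stress response and were followed in 10 RNA-seq libraries of mouse microglia. They were Gdf15, the GADD45 family (Gadd45a, Gadd45b and Gadd45g), and 6 genes known as p53 targets or p53 partners (Cdkn1a, Mdm2, Ccng1, Trp53inp1, Phlda3 and Sesn1). These 10 members, of 24411 genes in the count files, were found by their symbols. Gdf15 and Gadd45a had been picked because their reads were more frequent with lipopolysaccharide (LPS) in BV2 cells and not in primary microglia, so their values are given as a description and carry no test. The other 8 members were listed by family or role.

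Every library came from cells that received EPZ-6438 at 10 uM, an inhibitor of EZH2, the enzyme that methylates histone H3 at lysine 27. The groups were BV2 cells with EPZ-6438 and LPS (10 ng/ml, n = 2), BV2 cells with EPZ-6438 alone (n = 2), primary microglia with EPZ-6438 and LPS (10 ng/ml, n = 3) and primary microglia with EPZ-6438 alone (n = 3), all treated for 4 h. LPS, from the outer membrane of Gram-negative bacteria, is sensed by Toll-like receptor 4. BV2 is an immortalised mouse microglial line. The primary microglia were shaken off mixed glial cultures made from 12 pooled brains of 3-day-old ICR mice, and more than 92% of the cells were CD11b-positive, per the labels. No cells free of the inhibitor were analysed here, and what EPZ-6438 itself did was therefore not measured. The labels do not say whether replicates were separate cultures, and p-values then measure only the spread between these libraries, which may be technical.

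p53 is a transcription factor that is stabilised when DNA is damaged or a cell is otherwise stressed, and its targets stop the cell cycle, start repair or start cell death. Several of the members are also induced without p53: Gadd45b by NF-kB and TGF-beta signalling, Gdf15 by ATF4 and CHOP in the integrated stress response, and Cdkn1a by several differentiation signals. In microglia and macrophages, LPS activates NF-kB, interferon and stress kinase signalling, and both Gadd45b and Cdkn1a are known to respond to inflammatory stimuli.

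Libraries held 2750988 to 3684012 reads assigned to genes, and a count of 3 reads, used as the floor of detection in 1 library, corresponded to 0.845 to 1.23 CPM. CPM, the usual unit that divides a gene's reads by the size of its library, was taken here on library sizes scaled by the trimmed mean of M-values (TMM). The 12 microglia and macrophage markers had reads in all 4 groups. Without LPS, 8 of them were called lower and 2 higher in BV2 cells than in primary microglia, where 74.1% of all genes tested were called. Cx3cr1 differed most, at 2.89 CPM in BV2 cells and 130 CPM in primary microglia. All 6 LPS response genes used as a check rose in BV2 cells and all 6 rose in primary microglia. The ribosomal RNA precursor Rn45s took 43.7, 15.7 and 15.99% of the reads of primary microglia with LPS, against 50.3, 51.7 and 40.9% without LPS, and 27.0 to 30.1% in BV2 cells. No call on a member was gained or lost when Rn45s and the other abundant structural RNA genes, 5 in all, were left out. Replicate 1 of the primary microglia with LPS stood apart from the other 2 libraries of its group, with correlations of log2 CPM of 0.961 and 0.963 against 0.980 between the other 2. All 6 members called in primary microglia were also called without that library.

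The sequence upstream of the start site was read for the members from the RefSeq GRCm38.p6 table, which matched 9 of the 10 genes with 12 windows of 250 bases before a start. Trp53inp1 had no entry. The 5 windows below were chosen because they hold one of the motifs marked in them or belong to the member with the largest difference in BV2 cells. Capitals mark an octamer (ATTTGCAT), an ATF4 composite site (TGATGNAA) or an adjacent pair of p53 half-sites, each on either strand, in lower case sequence written 5′ to 3′ along the gene's own strand.
Gdf15 (chr8:70632457-70632706, minus strand): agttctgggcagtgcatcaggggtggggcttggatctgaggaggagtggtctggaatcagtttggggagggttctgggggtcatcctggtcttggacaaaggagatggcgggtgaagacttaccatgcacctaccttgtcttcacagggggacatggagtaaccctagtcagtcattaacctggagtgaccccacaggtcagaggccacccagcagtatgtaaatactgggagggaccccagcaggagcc
Gadd45a (chr6:67037408-67037657, minus strand): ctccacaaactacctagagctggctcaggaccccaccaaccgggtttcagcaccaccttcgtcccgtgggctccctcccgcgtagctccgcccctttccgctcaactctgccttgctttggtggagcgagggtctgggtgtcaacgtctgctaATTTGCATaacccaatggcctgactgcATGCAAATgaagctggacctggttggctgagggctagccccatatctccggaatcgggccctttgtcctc
Gadd45g (chr13:51846425-51846674, plus strand): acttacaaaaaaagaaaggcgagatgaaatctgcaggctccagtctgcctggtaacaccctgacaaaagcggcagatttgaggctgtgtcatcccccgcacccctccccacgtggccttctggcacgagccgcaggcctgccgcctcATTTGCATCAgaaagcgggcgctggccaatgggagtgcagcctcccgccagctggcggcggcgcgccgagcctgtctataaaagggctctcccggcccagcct
Cdkn1a (chr17:29090729-29090978, plus strand): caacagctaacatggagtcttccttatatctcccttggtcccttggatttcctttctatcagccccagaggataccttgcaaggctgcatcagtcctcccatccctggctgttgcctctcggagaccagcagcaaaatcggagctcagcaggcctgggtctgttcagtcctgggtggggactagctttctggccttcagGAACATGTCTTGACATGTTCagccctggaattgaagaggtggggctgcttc
Ccng1 (chr11:40755287-40755536, minus strand): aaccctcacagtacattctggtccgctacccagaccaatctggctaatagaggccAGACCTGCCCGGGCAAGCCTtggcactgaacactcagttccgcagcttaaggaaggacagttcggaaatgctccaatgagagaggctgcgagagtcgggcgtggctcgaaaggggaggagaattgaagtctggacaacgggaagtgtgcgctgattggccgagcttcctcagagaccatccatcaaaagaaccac

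The Gadd45a window held 2 octamers, starting 97 and 70 bases before the start site and lying on opposite strands. The Gadd45g window held 1 octamer, starting 103 bases before the start, and an ATF4 composite site that overlapped it from 101 bases before the start. Octamers were present in 1.6% of 32851 RefSeq windows of the same length, and ATF4 composite sites in 3.45%. The Cdkn1a window before the upstream start held the p53 half-sites GAACATGTCT and TGACATGTTC, starting 51 and 41 bases before the start. The Ccng1 window held AGACCTGCCC and GGGCAAGCCT, starting 195 and 185 bases before the start. An adjacent pair with at most 1 mismatch outside the core C and G was present in 19 of the 32851 windows (0.0578%). No member's window held a cyclic AMP response element (TGACGTCA, in 1.55% of windows), an AP-1 site (TGANTCA, in 6.75%) or the NF-kB consensus (in 3.9%). These matches describe letters in the windows and do not show binding.

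Gdf15, which encodes growth differentiation factor 15, a secreted stress cytokine of the TGF-beta superfamily, was nearly absent from BV2 cells without LPS and present with it. It lies on chromosome 8 from 70629393 to 70632456 on the minus strand of GRCm38. Its level was 11.7 and 9.02 CPM in the BV2 libraries with LPS (35 and 32 reads), against 0 and 0.33 CPM in the BV2 libraries without LPS (0 and 1 reads). The ratio of the summed rates was 64.0, and its 95% exact counting interval ran from 11.1 to 2564, because the denominator was a single read. In primary microglia the level was 1.57, 0.957 and 1.13 CPM with LPS (4, 3 and 4 reads), against 0.749, 1.23 and 1.41 CPM without LPS (2, 3 and 4 reads). The primary groups overlapped and the gene was under the low-count filter there. At 11 reads with LPS and 9 reads without LPS, a small difference in primary microglia was not detectable at this depth. The highest value in primary microglia, 1.57 CPM, was below the lower BV2 library with LPS.

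Of the 5 genes listed for the processing and reception of GDF15, Furin was the only one with reads in BV2 cells. Gfral, its receptor, had 0 reads in all 4 groups, and Ret, the co-receptor of GFRAL, had 6 reads, all in primary microglia with LPS. Of the 3 proprotein convertases listed, Furin averaged 49.1 ± 14.5 CPM in BV2 cells with LPS, 31.3 ± 5.07 CPM in BV2 cells without LPS, 147 ± 3.71 CPM in primary microglia with LPS and 122 ± 2.64 CPM in primary microglia without LPS (SD). Pcsk6 had 0 reads in BV2 cells, and averaged 6.82 ± 2.98 CPM in primary microglia with LPS and 12.3 ± 1.02 CPM without it, while Pcsk5 had 13 and 5 reads over those groups and 0 reads in BV2 cells. Pcsk6 fell with LPS in primary microglia by 0.91 ± 0.29 on the log2 scale (SE, edgeR adjusted p = 0.0181). The Pcsk6 call was lost with DESeq2 (adjusted p = 0.0740), without replicate 1 of the primary microglia without LPS (adjusted p = 0.0809), and without replicate 2 (0.0654) or replicate 3 (0.119) of those with LPS.

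**Figure D1:**
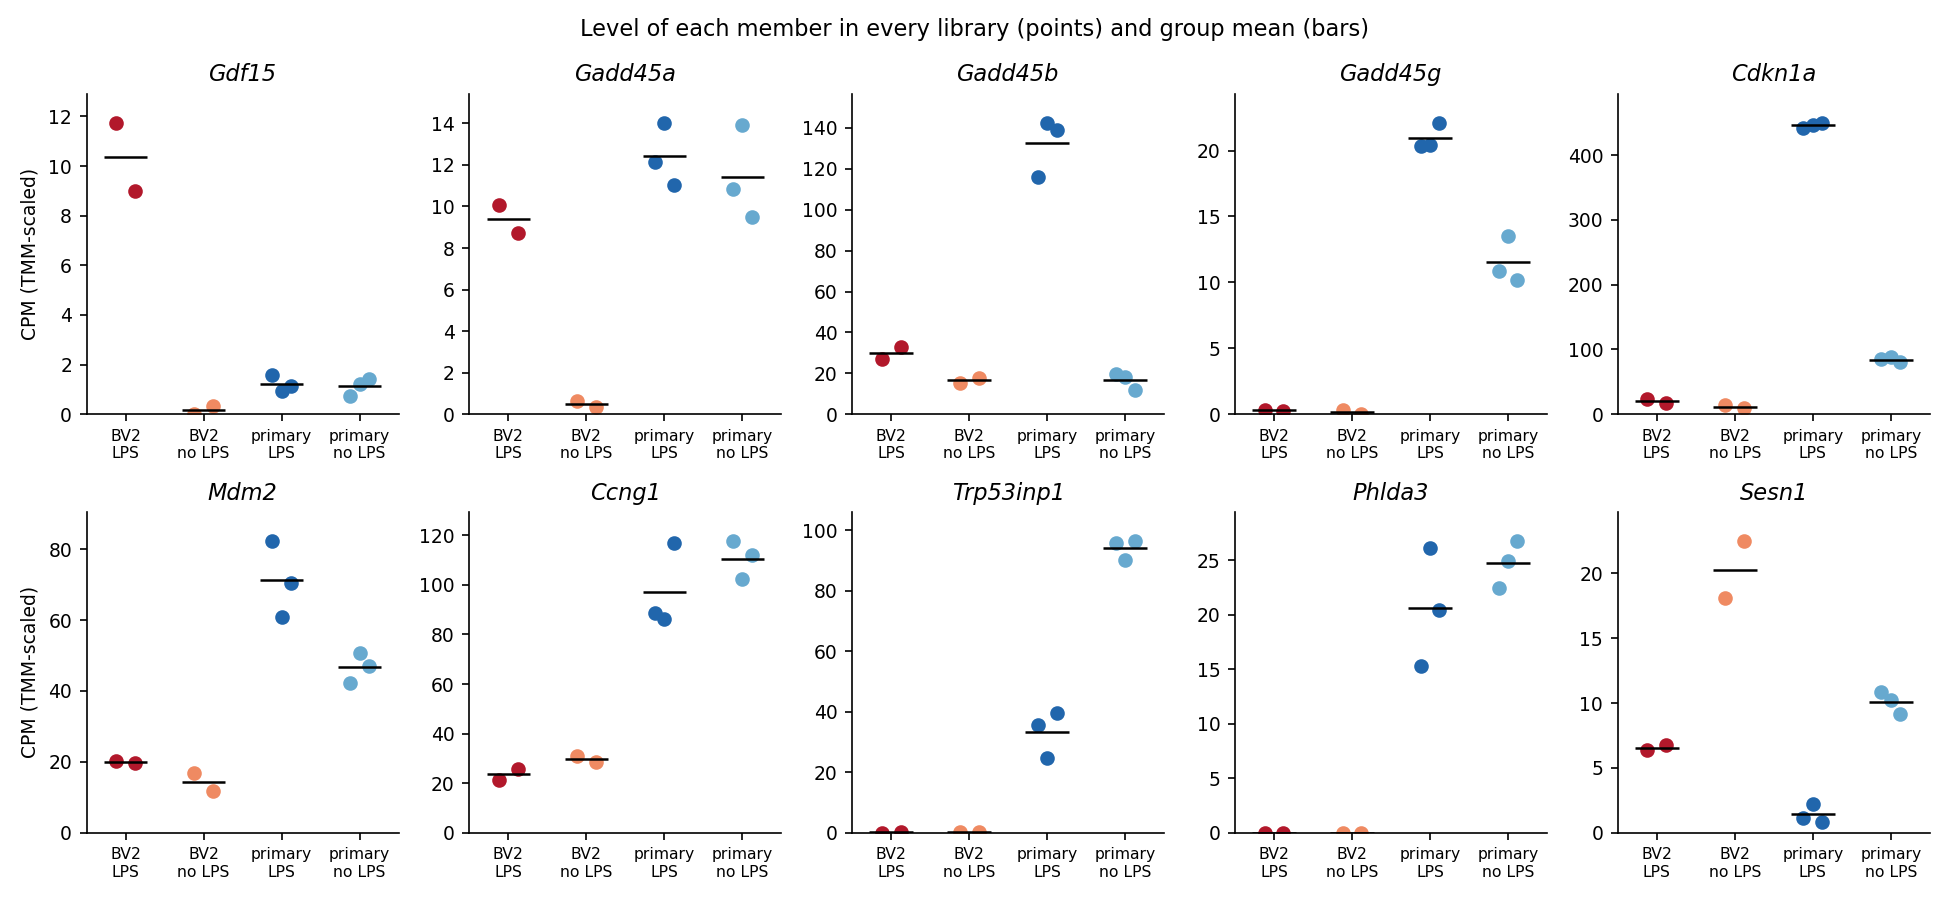
Level of each of the 10 members in CPM (vertical axes, linear from 0, one scale per gene) in every library (points), with the group mean as a bar, for BV2 cells with LPS, BV2 cells without LPS, primary microglia with LPS and primary microglia without LPS. Gdf15 was above 9 CPM only in the BV2 libraries with LPS, and Cdkn1a reached 442 to 450 CPM in primary microglia with LPS.

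The GADD45 proteins are small nuclear proteins that bind PCNA, p21, the CDK1 and cyclin B1 complex and the kinase MAP3K4, and that take part in active DNA demethylation. Gadd45a, on chromosome 6 from 67035096 to 67037457 (minus strand), measured 10.1 and 8.73 CPM in BV2 cells with LPS (30 and 31 reads), against 0.624 and 0.33 CPM without LPS (2 and 1 reads). The ratio of the summed rates was 19.4, with a 95% counting interval of 6.34 to 96.7. In primary microglia it measured 12.1, 14.0 and 11.1 CPM with LPS, against 10.9, 13.9 and 9.50 CPM without LPS. These primary groups overlapped, and the log2 difference of 0.11 ± 0.24 (SE) had a 95% interval of -0.35 to 0.58. The level with LPS lay inside the range of all primary libraries in 1 BV2 library and just below it in the other, and both BV2 libraries without LPS lay far below that range.

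A non-coding gene, E230016M11Rik, overlaps 859 bases of Gadd45a on the other strand. It had 1 read in each BV2 library with LPS and 4 and 3 reads in those without LPS. The values above come from strand-specific counts. From the unstranded counts, in which reads over both genes are ambiguous, the log2 difference of Gadd45a with LPS in BV2 cells was 3.02, against 4.21 ± 0.53 (SE) from the stranded counts.

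Gadd45b, on chromosome 10 from 80930073 to 80932204 (plus strand), rose in both kinds of cell, and more in primary microglia. Its level was 26.9 and 33.0 CPM in BV2 cells with LPS, against 15.3 and 17.8 CPM without LPS. In primary microglia it was 116, 143 and 139 CPM with LPS, against 19.9, 18.0 and 12.0 CPM without LPS. Neither pair of groups overlapped, as was so for 42.1% of the genes tested in BV2 cells and 49.0% of those tested in primary microglia. The log2 rise was 0.89 ± 0.22 (SE) in BV2 cells (edgeR adjusted p = 0.0363) and 2.99 ± 0.17 in primary microglia (adjusted p = 2.73e-11). The BV2 call was lost with DESeq2 (adjusted p = 0.181), without replicate 1 (0.231) or replicate 2 (0.0514) of the BV2 cells without LPS, and without replicate 2 of those with LPS (0.0722). The response in BV2 cells minus that in primary microglia was -2.14 ± 0.29 on the log2 scale (adjusted p = 2.32e-06).

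Gadd45g, on chromosome 13 from 51846678 to 51848468 (plus strand), was read almost only in primary microglia. The BV2 libraries held 1 and 1 reads with LPS and 1 and 0 reads without LPS, at or under the floor, so no response was estimated there. In primary microglia its level was 20.4, 20.4 and 22.1 CPM with LPS, against 10.9, 13.5 and 10.2 CPM without LPS. It rose by 0.86 ± 0.21 on the log2 scale in primary microglia (SE, edgeR adjusted p = 0.00287). Every library with LPS was above every library without it, and groups did not overlap for 49.0% of the genes tested there.

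Cdkn1a encodes p21, an inhibitor of cyclin-dependent kinases, and lies on chromosome 17 from 29090976 to 29100727 (plus strand). It was the most abundant member per length in primary microglia with LPS, at 125.5 CPM per kb of exon, followed by Gadd45b at 83.37 CPM per kb. Its level was 442, 446 and 450 CPM in primary microglia with LPS, against 84.7, 87.9 and 79.9 CPM without LPS. It rose there by 2.39 ± 0.11 on the log2 scale (SE, edgeR adjusted p = 1.45e-12). In BV2 cells it was 22.8 and 17.7 CPM with LPS, against 14.0 and 9.91 CPM without LPS, a log2 difference of 0.78 ± 0.26 with an adjusted p of 0.134. The BV2 groups did not overlap, as was so for 42.1% of the genes tested there. The difference was called without the low-count filter (adjusted p = 0.0427) and in a fit of all 4 groups (0.0416). It ranged from 0.57 to 1.07 when 1 library was left out. The response in BV2 cells minus that in primary microglia was -1.66 ± 0.25 (adjusted p = 1.89e-05).

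Mdm2, the ubiquitin ligase that targets p53 for degradation, lies on chromosome 10 from 117688875 to 117710758 (minus strand). It measured 82.3, 60.9 and 70.6 CPM in primary microglia with LPS, against 42.3, 50.7 and 47.2 CPM without LPS. It rose there by 0.59 ± 0.14 on the log2 scale (SE, edgeR adjusted p = 0.00274). In BV2 cells it measured 20.1 and 19.7 CPM with LPS, against 16.8 and 11.9 CPM without LPS, and the log2 difference of 0.50 ± 0.24 was not called (adjusted p = 0.381). The responses of the cells differed by -0.14 ± 0.28, BV2 minus primary (adjusted p = 0.909), with a 95% interval of -0.69 to 0.41.

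Ccng1 encodes cyclin G1, a p53 target that brings a phosphatase to MDM2, and lies on chromosome 11 from 40748552 to 40755311 (minus strand). Its level was 21.1 and 25.9 CPM in BV2 cells with LPS, against 30.9 and 28.4 CPM without LPS. In primary microglia it was 88.5, 86.1 and 117 CPM with LPS, against 118, 102 and 112 CPM without LPS. Neither difference was called, with log2 values of -0.29 ± 0.20 in BV2 cells (SE, edgeR adjusted p = 0.623) and -0.20 ± 0.13 in primary microglia (adjusted p = 0.264). Phlda3, a pleckstrin homology domain protein that restrains AKT, lies on chromosome 1 from 135766119 to 135769136 (plus strand). It had 0 reads in all 4 BV2 libraries. In primary microglia it was 15.3, 26.2 and 20.4 CPM with LPS, against 22.5, 24.9 and 26.7 CPM without LPS, overlapping groups with a log2 difference of -0.26 ± 0.20 (adjusted p = 0.325).

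Trp53inp1, a p53 cofactor linked to cell death and autophagy, lies on chromosome 4 from 11156431 to 11174379 (plus strand) and fell with LPS in primary microglia. Its level was 35.6, 24.6 and 39.7 CPM with LPS, against 95.9, 90.3 and 96.4 CPM without LPS. The fall was -1.51 ± 0.16 on the log2 scale (SE, edgeR adjusted p = 2.06e-07). The BV2 libraries held 0 and 1 reads with LPS and 1 and 1 reads without LPS, at or under the floor.

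Sesn1, on chromosome 10 from 41809935 to 41908424 (plus strand), encodes sestrin 1, which restrains mTORC1 signalling, and was the only member that fell in both kinds of cell. In BV2 cells it measured 6.38 and 6.76 CPM with LPS, against 18.1 and 22.5 CPM without LPS. In primary microglia it measured 1.18, 2.23 and 0.851 CPM with LPS, against 10.9, 10.2 and 9.15 CPM without LPS. Neither pair of groups overlapped, as was so for 42.1% of the genes tested in BV2 cells and 49.0% of those tested in primary microglia. The log2 fall was -1.58 ± 0.27 in BV2 cells (SE, edgeR adjusted p = 0.00314) and -2.81 ± 0.38 in primary microglia (adjusted p = 6.06e-06). The primary libraries held 3, 7 and 3 reads with LPS, at or near the floor, against 29, 25 and 26 without LPS. Sesn1 passed the low-count filter there only through the libraries without LPS, so its primary call is described only. The responses differed by 1.18 ± 0.50, BV2 minus primary, which was not called (adjusted p = 0.140).

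**Figure D2:**
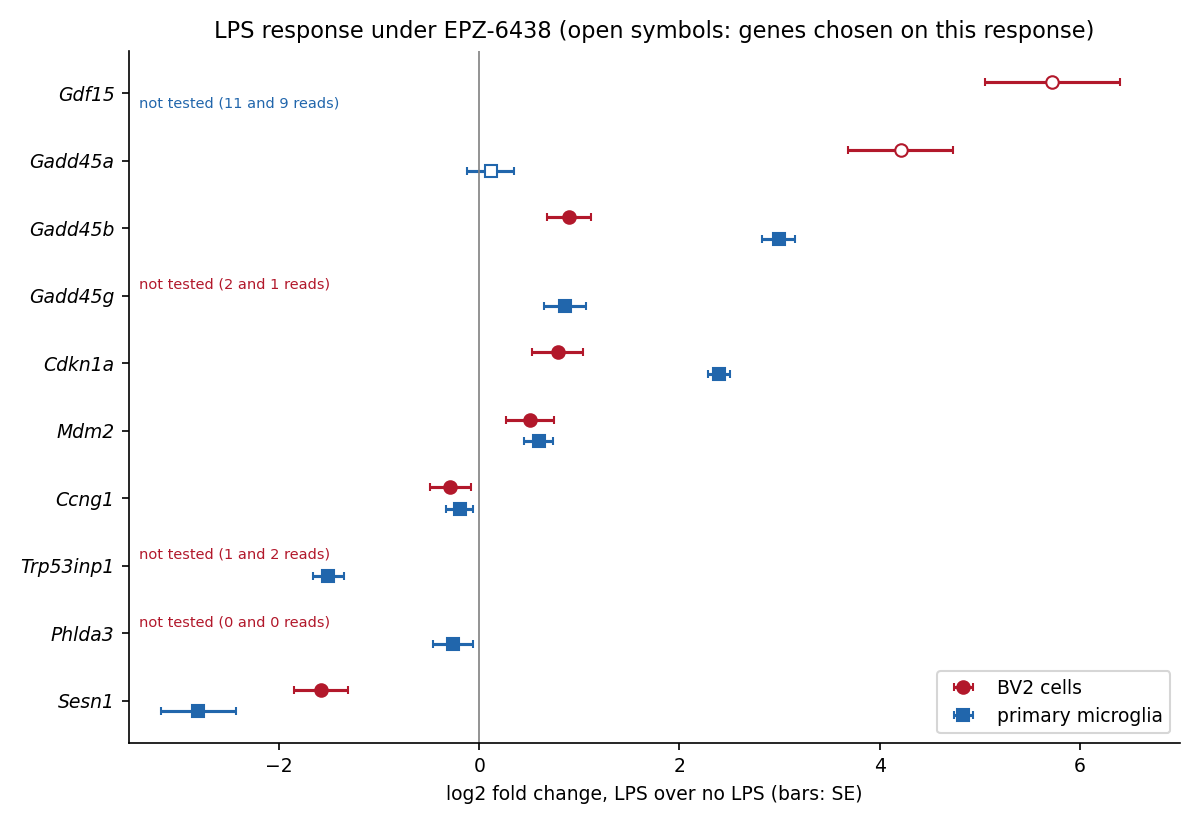
Log2 fold change with LPS over no LPS for each member (horizontal axis, bars are the SE of the fit) in BV2 cells (circles) and primary microglia (squares). Open symbols mark Gdf15 and Gadd45a, chosen on this response, and genes under the low-count filter are named with their reads. Gadd45b and Cdkn1a lay further right in primary microglia (2.99 and 2.39) than in BV2 cells (0.89 and 0.78), while Sesn1 was left of 0 in both.

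Counted over the 8 members listed by role, 1 rose and 1 fell of the 5 tested in BV2 cells, where 5.20% of 9321 genes were called (3.69% higher and 1.51% lower). In primary microglia 4 rose and 2 fell of the 8 tested, where 39.2% of 10664 genes were called (21.4% higher and 17.8% lower). For the difference of the responses, 2 were called of the 5 for which it could be estimated, both lower in BV2 cells, against 12.2% of 11626 genes (3.54% higher and 8.65% lower). The members were listed with these contrasts known, so nothing is read from these shares.

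Without LPS, most members were lower in BV2 cells than in primary microglia. Of the 8 members listed by role, 6 were called lower (Gadd45g, Cdkn1a, Mdm2, Ccng1, Trp53inp1 and Phlda3) and 1 was called higher (Sesn1) in BV2 cells, where 74.1% of 11626 genes were called (41.5% lower and 32.5% higher). Gadd45g, Trp53inp1 and Phlda3 passed the low-count filter only through the primary libraries, so they had to differ, and the count is not support for a difference of the group of genes. In bulk libraries, fewer cells of a type and less RNA per cell cannot be told apart.

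Trp53inp1 had 2 reads over the BV2 libraries without LPS, against 751 reads over the primary libraries without LPS, and its rate in primary microglia was 294 times that in BV2 cells (95% counting interval 81.1 to 2433). Gadd45g had 1 read against 91 reads, with a primary rate 71.3 times the BV2 rate (12.5 to 2846). Phlda3 was at least 51.4-fold lower in BV2 cells, from a floor of 3 reads over the BV2 group. Cdkn1a averaged 12.0 ± 2.91 CPM in BV2 cells and 84.1 ± 4.03 CPM in primary microglia (SD), a log2 difference of -2.80 ± 0.18 (SE, edgeR adjusted p = 1.95e-13). Ccng1 differed by -1.90 ± 0.17 (adjusted p = 1.46e-10) and Mdm2 by -1.69 ± 0.20 (adjusted p = 2.95e-08). Sesn1 averaged 20.3 ± 3.10 CPM in BV2 cells and 10.1 ± 0.866 CPM in primary microglia and was higher in BV2 cells by 1.01 ± 0.26 (adjusted p = 0.00111). Gadd45b averaged 16.6 ± 1.81 CPM in BV2 cells and 16.6 ± 4.12 CPM in primary microglia, and the 95% interval of its log2 difference was -0.44 to 0.44 (adjusted p = 0.995).

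The 2 genes chosen by their LPS response were low in the same BV2 libraries without LPS that had entered the choice, and are described only. Gadd45a had 3 reads in BV2 cells against 90 reads in primary microglia, a primary rate 23.5 times the BV2 rate (95% counting interval 7.79 to 116). Gdf15 had 1 read against 9 reads, a primary rate 7.05 times the BV2 rate, with an interval of 0.977 to 309 that includes equal rates.

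**Figure D3:**
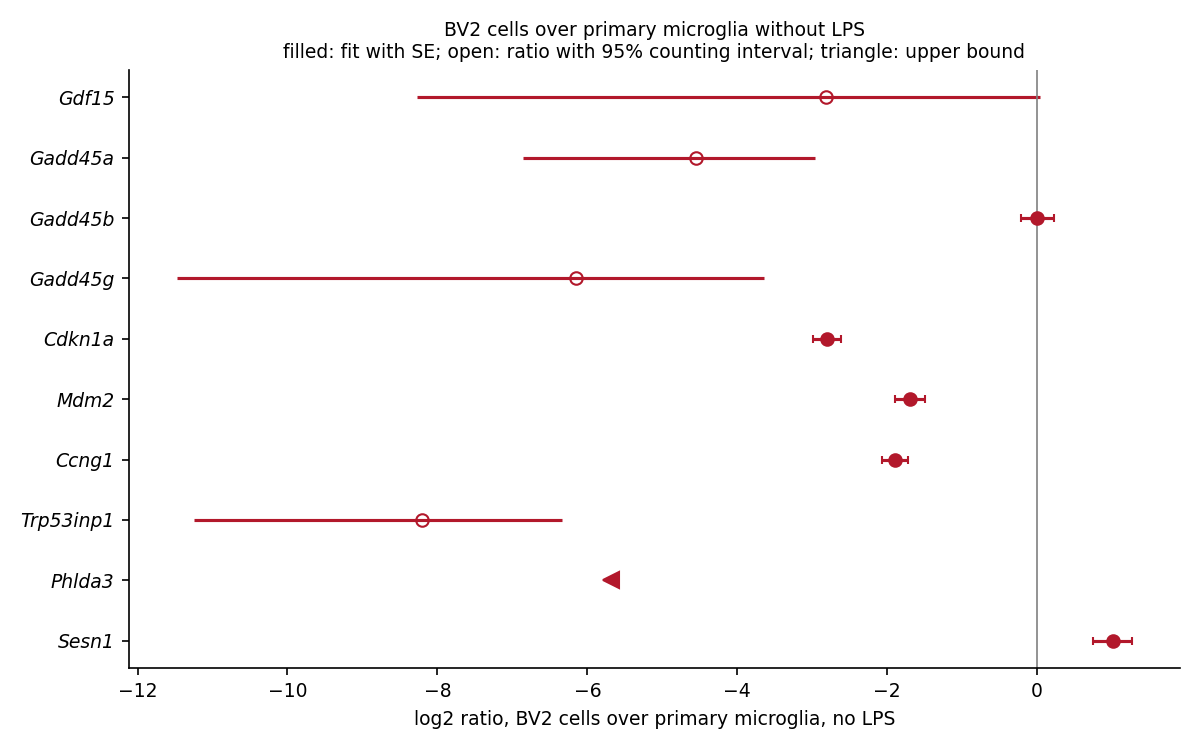
Log2 ratio of BV2 cells over primary microglia without LPS for each member (horizontal axis). Filled circles are fitted values with their SE, open circles are ratios of summed reads with 95% counting intervals where a group held 1 to 3 reads, and the triangle is the upper bound for Phlda3. Sesn1 was right of 0 (1.01), Gadd45b sat at 0 and the other members were left of 0.

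The cell cultures also differed in markers of other cells. The 10 astrocyte markers summed to 38.0 to 43.0 CPM in BV2 libraries, where Gfap and Aqp4 had 0 reads, and to 872 to 1558 CPM in primary libraries. The 10 fibroblast and mural markers summed to 0.661 to 1.97 CPM in BV2 libraries and 292 to 733 CPM in primary libraries, the 10 oligodendrocyte lineage markers to 25.1 to 28.4 CPM and 202 to 250 CPM, and the 8 neuron markers to 0 CPM and 76.0 to 89.6 CPM. The 6 endothelial markers summed to 96.1 to 138 CPM in BV2 libraries and 13.1 to 23.3 CPM in primary libraries. Most of that BV2 sum was Kdr, at 91.6 CPM with LPS and 114 CPM without it. Cdh5 went the other way, at 0.926 and 0.321 CPM in BV2 cells, against 7.75 and 8.47 CPM in primary microglia. Cldn5 and Tek had 0 reads in BV2 cells. The BV2 astrocyte sum was nearly all Aldoc, at 39.8 CPM with LPS and 42.2 CPM without it. The part of all these markers in the differences between the cells was not tested. Within primary microglia the astrocyte sums were 885 to 1558 CPM with LPS and 872 to 1458 CPM without LPS, ranges that overlap. Of the 8 astrocyte markers tested with LPS there, 3 were called (37.5%, against 39.2% of all genes tested). Aqp4 rose by 0.93 ± 0.17 on the log2 scale (SE, edgeR adjusted p = 8.46e-04), while Sox9 fell by -1.90 ± 0.40 (adjusted p = 0.00674) and Gja1 by -0.50 ± 0.15 (adjusted p = 0.0139). Of the 9 oligodendrocyte lineage markers tested, 22.2% were called: Cnp rose by 0.66 ± 0.14 (adjusted p = 7.55e-04) and Mbp fell by -0.55 ± 0.15 (adjusted p = 0.00714). Of the 3 neuron, 9 fibroblast and mural and 2 endothelial markers tested, none was called by edgeR or DESeq2 and 0 had an unadjusted p under 0.05. The part of these genes in the members' responses to LPS was not tested.

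A list of 32 other p53 target genes was read beside the members. Of 25 tested in BV2 cells, 2 rose and none fell (edgeR), or 8% called against 5.20% of all genes tested, with a median log2 difference of -0.11 against -0.01 over all genes tested. The 2 were Btg2, an antiproliferative factor, by 2.29 ± 0.22 (SE, edgeR adjusted p = 3.16e-05) and Plk2, a polo-like kinase, by 1.14 ± 0.18 (adjusted p = 0.00188). At an unadjusted p under 0.05, 4 were higher and 0 lower, and DESeq2 called 2 higher and 0 lower. Without replicate 1 of the BV2 cells with LPS, 5 of the list were called. In primary microglia 6 rose and 8 fell of 29 tested, or 48.3% called against 39.2% of all genes, with a median of -0.18 against -0.03 over all genes. Pml, a nuclear body protein also induced by interferon, rose by 2.67 ± 0.20 (adjusted p = 1.65e-08) and Fas, the death receptor, by 2.55 ± 0.53 (adjusted p = 9.15e-04), while Fdxr, a mitochondrial reductase, fell by -2.10 ± 0.44 (adjusted p = 7.58e-04). Over the primary groups with and without LPS, Fas had 63 and 9 reads and Fdxr 12 and 45. Fas and Fdxr each passed the low-count filter there only through the group where they were higher, so their calls are described only. In BV2 cells Fas was under the low-count filter and not tested. It had 24 reads there with LPS and 1 read without it (3.62 ± 0.852 and 0.156 ± 0.221 CPM, SD).

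The difference of the responses was called for 4 of 29 other p53 targets, or 13.8% against 12.2% of all genes, 3 with the higher and 1 with the lower response in BV2 cells. DESeq2 called 0 and 1. Pml differed by -3.45 ± 0.48, BV2 minus primary (SE, edgeR adjusted p = 1.60e-05). It averaged 4.21 ± 1.17 CPM in BV2 cells with LPS, 7.13 ± 3.47 CPM in BV2 cells without LPS, 90.6 ± 25.0 CPM in primary microglia with LPS and 14.0 ± 1.62 CPM in primary microglia without LPS (SD). Bbc3, which encodes the cell death protein PUMA, differed by 2.20 ± 0.70 (adjusted p = 0.0364), and Fdxr by 1.93 ± 0.54 (adjusted p = 0.0158). Bbc3 averaged 2.44 ± 0.131 CPM in BV2 cells with LPS and 1.79 ± 1.21 CPM without it (SD), and was under the low-count filter there. In primary microglia it was lower with LPS, at 2.24 ± 0.652 CPM, than without it, at 7.73 ± 1.46 CPM. The Bbc3 call was lost without replicate 2 of the primary microglia without LPS (0.0791), replicate 3 of those with LPS (0.0643), replicate 1 of the BV2 cells without LPS (0.225), and replicate 1 (0.0880) or replicate 2 (0.130) of those with LPS. The Fdxr call was lost without replicate 2 of the primary microglia without LPS (0.0617), replicate 3 of those with LPS (0.0525), replicate 2 of the BV2 cells without LPS (0.0699) and replicate 2 of those with LPS (0.0542).

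**Figure D4:**
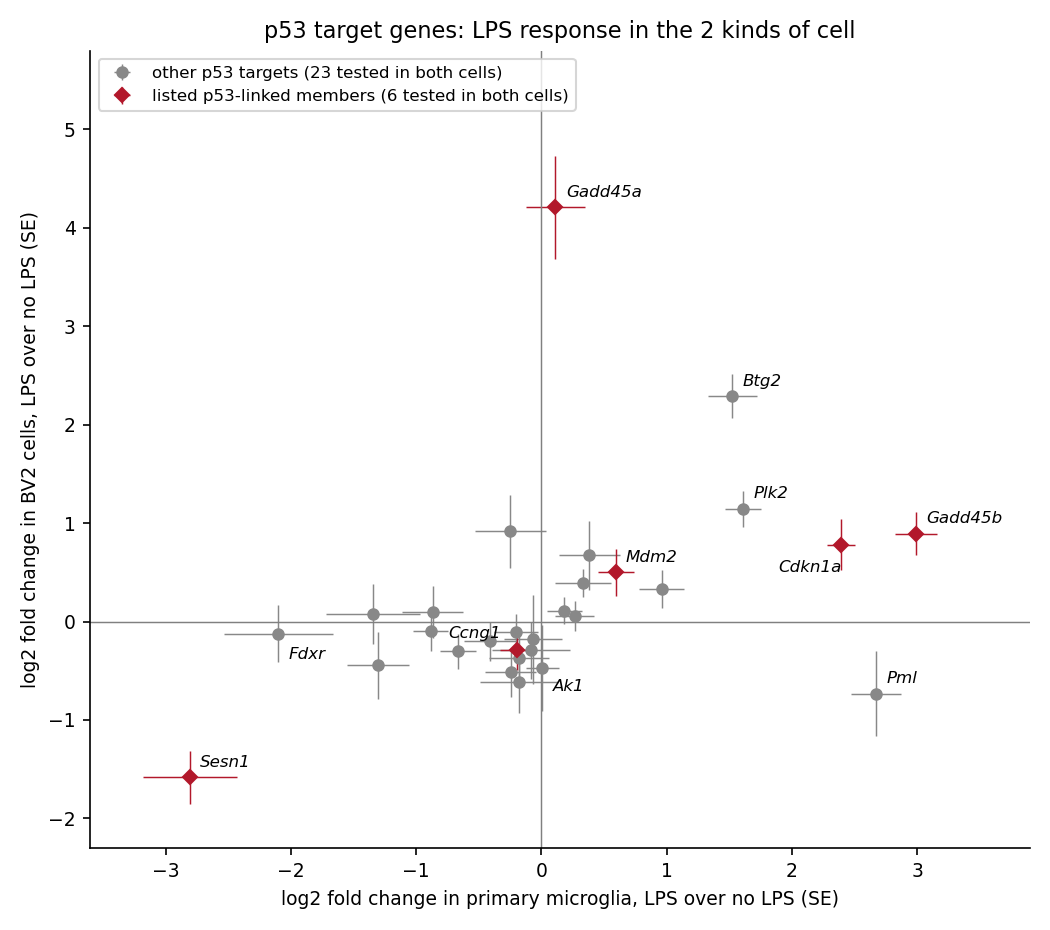
Log2 fold change with LPS over no LPS in BV2 cells (vertical axis) against that in primary microglia (horizontal axis), bars are SE, for the 6 members and 23 other p53 targets tested in both cells. Gadd45a lay near 0 in primary microglia (0.11) and at 4.21 in BV2 cells, Sesn1 was low in both, and Pml was high in primary microglia (2.67) alone. Gdf15 is absent because it was under the low-count filter in primary microglia.

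Without LPS, 11 of 31 other p53 targets tested were higher and 12 lower in BV2 cells than in primary microglia, or 74.2% called against 74.1% of all genes tested. Eda2r and Tnfrsf10b, both death receptor family members, had 0 reads in BV2 cells and were at least 28.5-fold and at least 13.6-fold lower there. Both passed the low-count filter only through the primary libraries, so they had to differ, and nothing is read from the count that includes them. Ak1, an adenylate kinase, averaged 4.17 ± 0.283 CPM in BV2 cells and 68.4 ± 4.09 CPM in primary microglia (SD), a log2 difference of -4.02 ± 0.24 (SE, edgeR adjusted p = 2.31e-14).

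Trp53 itself, which encodes p53, had reads in every group. It averaged 167 ± 2.5 CPM in BV2 cells with LPS, 123 ± 13.3 CPM in BV2 cells without LPS, 82.6 ± 8.16 CPM in primary microglia with LPS and 46.6 ± 2.55 CPM in primary microglia without LPS (SD). It rose with LPS in primary microglia by 0.81 ± 0.13 (SE, edgeR adjusted p = 5.64e-05), and was not called in BV2 cells at 0.47 ± 0.13 (adjusted p = 0.0708). It was higher in BV2 cells than in primary microglia without LPS by 1.40 ± 0.14 (adjusted p = 1.34e-09). This sign was opposite to that of Cdkn1a, Mdm2 and Ccng1 and the same as that of Sesn1. The other p53 targets were split, with 11 called higher and 12 lower in BV2 cells. Of the 19 genes in the list of p53 and its regulators, none of 17 tested was called in BV2 cells by edgeR or DESeq2, with 2 higher at an unadjusted p under 0.05, while 4 rose and 3 fell of 15 tested in primary microglia (46.7% called against 39.2% of all genes). Daxx, a histone chaperone that binds p53 and MDM2, rose there by 4.44 ± 0.15 (adjusted p = 8.73e-15) and Chek2, a DNA damage checkpoint kinase, fell by -3.22 ± 0.45 (adjusted p = 1.15e-05). Chek2 had 8 reads over the primary libraries with LPS and 67 without it. It passed the low-count filter there only through the latter, so its primary call is described only. The response differed between the cells by -3.49 ± 0.32 for Daxx (adjusted p = 3.93e-09) and 2.76 ± 0.53 for Chek2 (adjusted p = 4.22e-04), BV2 minus primary. Cdkn2a, which encodes p16 and p19ARF, averaged 20.6 ± 2.66 CPM in BV2 cells and 2.38 ± 1.45 CPM in primary microglia without LPS, a difference of 3.09 ± 0.40. It had 128 and 19 reads over these groups. Cdkn2a passed the low-count filter only through the BV2 libraries, so its difference is described and no test is read.

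A list of 24 genes linked to ATF4 and the integrated stress response was counted in the same way. In BV2 cells 5 of 21 tested rose and none fell (1 was lower at an unadjusted p under 0.05, and DESeq2 called 4 higher and 0 lower), or 23.8% called against 5.20% of all genes, with a median of 0.19 against -0.01 over all genes tested. In primary microglia 9 rose and 6 fell of 22 tested, or 68.2% called against 39.2% of all genes, with a median of 0.00 against -0.03. Slc7a11, the cystine transporter, averaged 131 ± 24.8 CPM in BV2 cells with LPS and 10.9 ± 0.462 CPM without it (SD), a rise of 3.62 ± 0.21 (SE, edgeR adjusted p = 3.31e-07). In primary microglia it rose by 4.67 ± 0.13 (adjusted p = 8.33e-16). Atf3, a stress-induced transcription factor, rose by 1.66 ± 0.20 in BV2 cells (adjusted p = 1.70e-04) and 2.19 ± 0.12 in primary microglia (adjusted p = 1.04e-11). Herpud1, a gene of endoplasmic reticulum protein degradation, averaged 115 ± 5.81 CPM in BV2 cells with LPS, 36.4 ± 2.82 CPM in BV2 cells without LPS, 24.3 ± 5.66 CPM in primary microglia with LPS and 24.2 ± 7.43 CPM in primary microglia without LPS. Its response differed by 1.65 ± 0.29, BV2 minus primary (adjusted p = 2.02e-04). Atf4 itself averaged 281 ± 9.03 CPM in BV2 cells with LPS and 238 ± 10.7 CPM without it (SD). Ddit3, which encodes CHOP, had 21 and 17 reads over those groups, and Trib3 had 16 and 31 reads. The rise in BV2 cells was therefore not shared by the whole list. The part of ATF4 and CHOP in the rise of Gdf15 was not tested.

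Among the 14 partners of the GADD45 proteins, 1 of 11 tested rose in BV2 cells, and 3 rose and 2 fell of 11 tested in primary microglia (9.09% and 45.5% called, against 5.20% and 39.2% of all genes). Tet2, a methylcytosine dioxygenase, rose in both, by 2.07 ± 0.25 in BV2 cells (SE, edgeR adjusted p = 2.21e-04) and 1.36 ± 0.14 in primary microglia (adjusted p = 2.22e-07). Pcna, the replication clamp, rose in primary microglia by 1.06 ± 0.16 (adjusted p = 7.29e-05), and its response differed by -1.24 ± 0.22, BV2 minus primary (adjusted p = 1.76e-04). Among the 9 cyclin and kinase genes whose products p21 inhibits, 1 of 9 fell in BV2 cells (11.1%). This was Ccnd1, which encodes cyclin D1, by -0.89 ± 0.17 (adjusted p = 0.00711). In primary microglia Cdk6 rose by 2.26 ± 0.21 (adjusted p = 6.05e-08) and Cdk2 fell by -0.96 ± 0.22 (adjusted p = 0.00152), of 7 tested (28.6%). Without LPS, 8 of the 9 were higher and 1 lower in BV2 cells than in primary microglia, where 74.1% of all genes were called. Ccne1 and Ccne2 passed the low-count filter only through the BV2 libraries, so nothing is read from this count. The largest difference was that of Ccna2, which encodes cyclin A2, at 313 ± 9.90 CPM in BV2 cells and 5.82 ± 1.12 CPM in primary microglia (SD), or 5.75 ± 0.18 on the log2 scale (SE, adjusted p = 1.22e-19).

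The genes whose levels followed Gdf15 and Gadd45a most closely over the 10 libraries differed. For Gdf15 they were Csf3 (Pearson r of log2 CPM 0.896), Hp (0.889), Osm (0.850), Cry1 (0.849) and Snx18 (0.843). For Gadd45a they were Id3 (0.968), Dusp8 (0.950), Agpat4 (0.949), Pou2f2 (0.944) and Ppt2 (0.931). Csf3, a granulocyte growth factor, averaged 82.6 CPM in BV2 cells with LPS, 0 CPM in BV2 cells without LPS, 4.94 CPM in primary microglia with LPS and 0.117 CPM in primary microglia without LPS. Id3, an inhibitor of helix-loop-helix factors, averaged 53.1, 8.53, 117 and 89.0 CPM in the same order of groups. Gdf15 and Gadd45a had an r of 0.491 with each other. The 10 libraries fall into 4 groups and the r values are descriptions that carry no test.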

How the data were processed

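The 10 mouse RNA-seq libraries were compared as 4 groups taken from the labels. The deposited counts are whole-number reads per gene symbol, made by the authors with STAR 2.5.1 on mm10 after CASAVA 1.8.2 and Trimmomatic 0.33, per the submitters' processing notes (DESeq2 is listed there too). The sources used here do not give the gene annotation. Column 4, which holds the strand of the directional libraries, was used. Rows that name no gene (70.4 to 79.5% of reads) were left out.

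Each LPS comparison was fitted within 1 kind of cell, and the other comparisons over all 10 libraries, with the two-sided quasi-likelihood test of edgeR 4.0.16 in R 4.3.3 (TMM scaling, filterByExpr with a minimum count of 10 and a total of 15). Benjamini-Hochberg adjustment ran over all genes tested, and an adjusted p under 0.05 was called. CPM was computed from the deposited counts. The script was tested on simulated data. Counting intervals are exact binomial and, like the floor of 3 counts, cover counting error only, since reads have no molecular identifiers. Coordinates and exon lengths are from GENCODE M21 on GRCm38.

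The members and gene lists were chosen with earlier results of these data known. Beside the members, the text names from each list up to 3 called genes with the largest log2 change per comparison, and the 5 genes most like Gdf15 and Gadd45a. Trp53, Atf4, Ddit3 and Trib3 were named after their values were seen. Alternatives were DESeq2 1.42.0, no filter, unstranded counts, no abundant structural RNA genes, a replicate block, a 4-group fit and omission of each library.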

Additional observations from a re-analysis of the deposited data

Results flagged for a closer look

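The response to LPS of 2 members differed between the cells by a test of the difference itself, an interaction term over all 10 libraries in edgeR. The difference, BV2 minus primary, was -2.14 ± 0.29 on the log2 scale for Gadd45b (SE, adjusted p = 2.32e-06) and -1.66 ± 0.25 for Cdkn1a (adjusted p = 1.89e-05). For both genes, every library with LPS was above every library without it in each kind of cell. Groups did not overlap for 42.1% of the genes tested in BV2 cells and 49.0% in primary microglia, so nothing is read from this. With LPS in BV2 cells alone, Cdkn1a was not called (adjusted p = 0.134), and the Gadd45b call (adjusted p = 0.0363) was lost with DESeq2 and under 3 omissions of 1 library. Both differences were called under each of the alternatives run.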

How the results depend on the processing

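The number of genes called with LPS in BV2 cells was 318 with DESeq2, against 485, and 353 to 800 when 1 library was left out (800 without replicate 1 of the BV2 cells with LPS). Of the 8 members listed by role, 1 was called in BV2 cells with DESeq2, and 1 to 2 when 1 library was left out. Other p53 targets called were 2 to 5 in BV2 cells when 1 library was left out. For the difference of the responses they were 1 with DESeq2 and 2 with unstranded counts, against 4, and 1 to 5 when 1 library was left out. Differences near 0 changed sign: Gadd45a with LPS in primary microglia ranged from -0.011 to 0.28 when 1 library was left out (-0.011 without replicate 3 of the primary microglia without LPS). Gadd45b in BV2 cells over primary microglia without LPS was -0.048 with DESeq2, -0.038 without the abundant structural RNA genes and -0.079 with the replicate block, and -0.25 to 0.14 when 1 library was left out. The difference of the responses ranged from -0.37 to 0.13 for Mdm2 and from -0.31 to 0.013 for Ccng1 when 1 library was left out. The cause was not tested. The log2 difference of Gdf15 in BV2 cells was 4.85 without replicate 1 and 8.09 without replicate 2 of the BV2 cells without LPS, which hold its single read between them, and the second value is set against 0 reads and is no bound. A BV2 group left with 1 library was assumed to vary like the other group. Leaving out the 5 abundant structural RNA genes moved the median difference of the responses by 0.10 and the split of calls to 536 higher and 808 lower, against 412 and 1006. Leaving them out of the library sizes raised every CPM level, for Gdf15 in BV2 cells with LPS to 18.8 CPM, against 10.4 CPM. The calls on the difference for Eif2ak4, Tet3 and Rfwd2 were each lost under several omissions of 1 library (adjusted p up to 0.182, 0.148 and 0.107).

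With replicate number as a block, calls were 406 higher and 190 lower in BV2 cells, and the block ended no call on a member. Deviations of same-numbered libraries had a correlation of 0.156 in BV2 cells. With 2 libraries per group, both BV2 pairs must give that same value. In the primary pairs the correlations were 0.181, -0.0775 and 0.194, and replicate 2 with LPS correlated best with replicate 3 without LPS (0.197). The numbers were therefore not taken as pairs. Single reads limit the low BV2 values: this depth cannot show a fall or a small rise of Gadd45g, Trp53inp1 or Phlda3 in BV2 cells. With LPS they held 2, 1 and 0 reads over the BV2 group, against 67 for Gdf15 and 61 for Gadd45a.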
